A study of Mus musculus with 50 samples.

Results

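The genes described here are the class I histone deacetylases Hdac1, Hdac2 and Hdac3, the histone-binding subunits Rbbp4 and Rbbp7, the NuRD subunits Chd4, Mta1 and Mta2, the scaffold Sin3a, and Gm17525, a long intergenic non-coding RNA gene (lincRNA) annotated on the strand opposite Rbbp4. They were taken by name, 10 genes of the 37310 in the RNA count tables, and the rule uses no measured value. The set was, however, chosen with earlier results of these data known. Counts came from J1 mouse embryonic stem (ES) cells, a male line of strain 129S4/SvJae, grown untreated in serum and leukaemia inhibitory factor on gelatin. Of the 50 samples, 6 are RNA libraries and the other 44 come from assays of chromatin and were not analysed here. The 3 groups of 2 libraries each are wild type cells, the NSD1-/- line labelled KO1 and the NSD1-/- line labelled KO2. How the lines were derived, whether each is a single clone, and whether libraries of a group are separate cultures are points on which the labels are silent. The p-values below therefore reflect the spread between these 6 libraries alone, and that spread may be technical. The title of the study ties NSD1, a histone H3 lysine 36 methyltransferase, to the placement of HDAC1 at enhancers, and the comparison of the lines with wild type cells asks whether the deacetylase genes and their partners differ in RNA counts.

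Class I deacetylases remove acetyl groups from histone tails and act as the catalytic subunits of larger complexes. HDAC1 and HDAC2 pair with each other in the NuRD, Sin3, CoREST and MiDAC complexes, while HDAC3 works in the NCoR and SMRT complexes. RBBP4 and RBBP7 are closely related WD-repeat proteins that bind histones in NuRD and Sin3, and RBBP4 also serves in PRC2, NURF and CAF-1. In ES cells NuRD limits the expression of pluripotency genes and is needed for commitment to differentiation.

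The tables hold raw counts of read pairs over exons. They were counted with a strand setting that keeps fragments on one strand only, and no source used here says whether the library kit keeps strand. For many genes that ES cells use heavily the counts are low, while the gene on the other strand has many, so each count is listed under the counted gene and, where the mm9 annotation has one, its opposite partner is named. Whether the fragments under a counted gene came from that gene or from its opposite partner was not tested. Counts on the 2 strands were unlike for Gm17525, at 1499 to 1710 per library, and Rbbp4, at 44 to 103, which share 796 exon bases. They were more alike for Rbbp4 and Sync, another gene opposite it, which held 53 to 94 and shares 782 exon bases with it. Each library held between 1150089 and 1285487 counts, of which a single gene, AY036118, took between 32.3% and 37.2%. Nsd1 held 21 and 25 counts in wild type, 55 and 38 in the libraries labelled KO1, and 27 and 21 in those labelled KO2, so its counts were not lower in the lines labelled NSD1-/- and do not check the labels. The 12 ES cell markers, read by the counted gene, summed to between 385 and 414 counts in every library, and 7 of 12 fibroblast markers were at 0 in all libraries. Read the same way, the fibroblast markers summed to between 33 and 63 counts per library. The neural markers summed to between 167 and 229, and the endoderm markers to between 3 and 10. Read by the gene opposite, counted genes facing 2 of the ES cell markers summed to 4943 and 5253 for wild type, between 2407 and 2607 for KO1 and between 5838 and 6260 for KO2. Those facing 3 of the fibroblast markers summed to between 1491 and 1593 for wild type, 1503 and 1550 for KO1 and 1324 and 1484 for KO2. Those facing 2 of the neural markers summed to 69 and 70 for wild type, between 197 and 228 for KO1 and between 35 and 55 for KO2. By edgeR, both of the genes facing ES cell markers fell for the lines together and in KO1, while in KO2 one rose (log2 fold change 0.29) and the other fell (-0.38). By the same test 2 of the 3 facing fibroblast markers fell for the lines together, with a smallest log2 fold change of -4.84 and a median over the 3 of -2.60. The single tested gene facing a neural marker rose in KO1 (1.55) and fell in KO2 (-0.64). The part of these differences in the results below was not tested.

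The locus of Rbbp4 is shown first because most counts of the set lie there. Rbbp4 lies on the minus strand at chr4:128984344-129012614 (mm9), and its main transcript has 12 exons with 1275 coding bases and a 3′ untranslated region (UTR) of 2992 bases after the stop codon. Gm17525 lies on the plus strand at chr4:128986325-128995687 and has 2 exons. Its first exon, of 796 bases, falls wholly inside the Rbbp4 3′ UTR, from base 216 to base 1011 after the stop codon. Its second exon, of 252 bases, lies in no exon of Rbbp4 and stops at the base next to the end of Rbbp4 exon 9, which has 77 coding bases on the other strand. The annotated Gm17525 intron of 8315 bases starts with CT and ends with AG on both strands, whereas 95.3% of the 16811 introns annotated on chromosome 4 start with GT and end with AG on the strand of their own gene. The same 10 bases stand at both ends of that intron. The stretches are printed from the mm9 genome, 5′ to 3′, the first pair on the plus strand at chr4:128987106-128987135 and chr4:128995421-128995450 with the repeated bases in capitals, and the third on the minus strand at chr4:128995648-128995764 with the Rbbp4 exon in capitals and the start of its intron, which does begin with GT, in lower case.
End of Gm17525 exon 1: ccagacttTGTTCAGCTAcccagccacaat
Start of Gm17525 exon 2: caaccatcTGTTCAGCTAaagtatacccat
Rbbp4 exon 9 beside Gm17525: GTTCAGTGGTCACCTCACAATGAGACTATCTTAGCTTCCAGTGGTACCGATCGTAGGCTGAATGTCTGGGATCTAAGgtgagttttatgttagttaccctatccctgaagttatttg
A further gene on the plus strand, Sync, which encodes the intermediate filament protein syncoilin, covers 782 bases of the far end of the same UTR and ends 521 bases before Gm17525 starts.

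**Figure D1:**
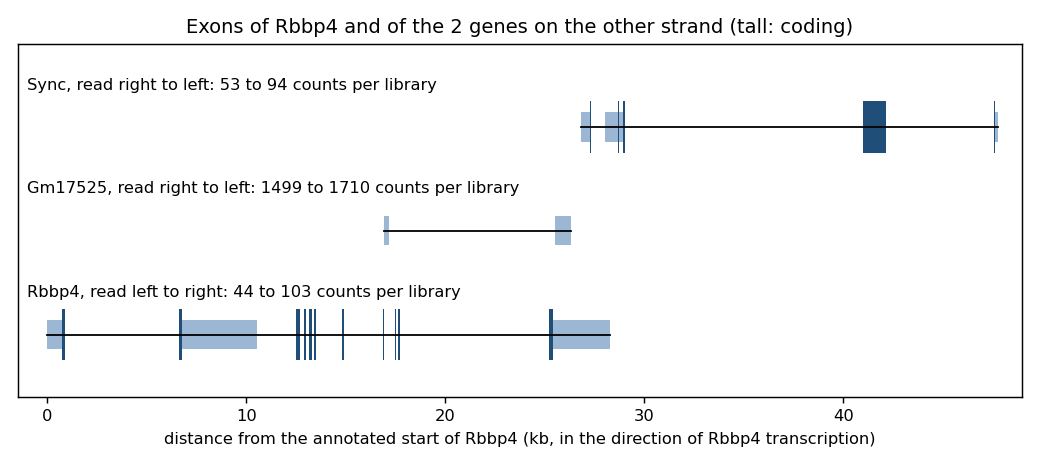
Annotated exons of Rbbp4 (lower row) and of Gm17525 and Sync on the other strand (middle and upper rows) against the distance from the Rbbp4 start in kilobases, with coding parts drawn tall. Gm17525 exon 1 and the end of Sync lie over the Rbbp4 3′ UTR, and Gm17525 drew 1499 to 1710 counts per library against 44 to 103 for Rbbp4.

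Across the 10 genes the counts were far from even. Gm17525 held 1664 and 1499 counts for wild type, 1640 and 1508 for KO1 and 1518 and 1710 for KO2. The other 9 genes held at most 103 counts in any library. Per kilobase of exon, the mean over the 6 libraries was 1286 CPM (counts scaled to the TMM effective library size) for Gm17525, which ranked 61 of the 37310 genes. Hdac1 followed with 10.4 CPM per kilobase, then Rbbp4 with 6.33, Mta1 with 3.41, Chd4 with 3.01, Sin3a with 2.25, Mta2 with 2.10, Rbbp7 with 1.85, Hdac2 with 0.920 and Hdac3 with 0.251. The exon length joins all annotated transcripts of a gene, so this order depends on the annotation. For Rbbp4 it is 8744 bases, with an exon of 3910 bases from a retained-intron transcript, and for Hdac1 3445. By count alone Rbbp4 ranked 1384 and Hdac1 1776. Gm17525 stood apart from every other gene of the set in each library, at no less than 1206 CPM per kilobase against at most 13.6 for Hdac1. Hdac1, from 6.98 to 13.6 CPM per kilobase, and Rbbp4, from 4.40 to 9.71, overlapped in range. Rbbp4 lay just above Mta1, which reached 4.25, and from Mta1 down each gene overlapped its neighbour in this order.

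**Figure D2:**
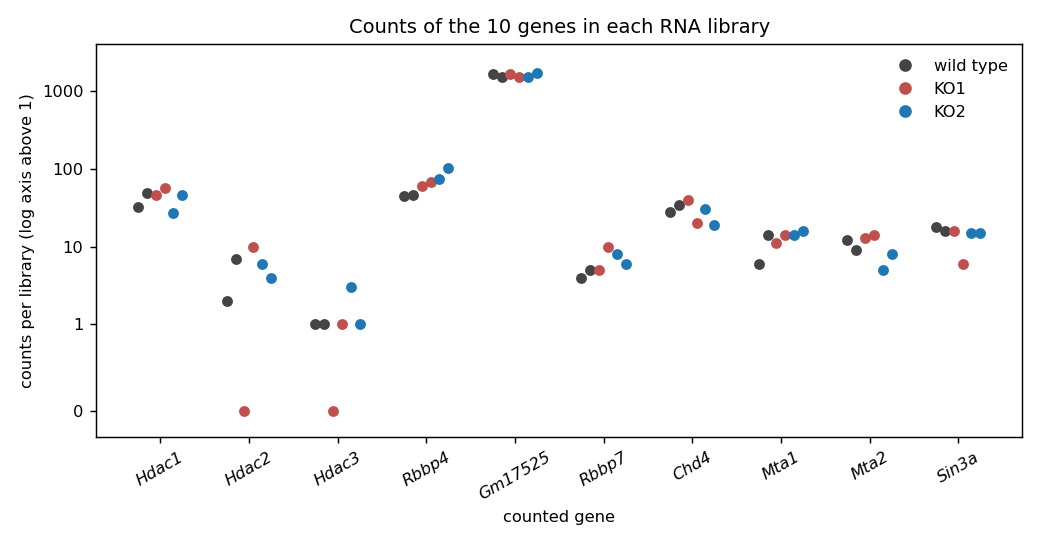
Counts of each of the 10 genes in each RNA library, coloured by group, on an axis that is logarithmic above 1. Gm17525 sits between 1499 and 1710 in all libraries, Rbbp4 is lowest in both wild type libraries, and Hdac2, Hdac3 and Rbbp7 do not exceed 10 counts.

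Of the 10 genes, 7 passed the filter on low counts and were tested. Each contrast was fitted with edgeR's quasi-likelihood test over all 5034 genes that passed, with Benjamini-Hochberg adjustment, and a gene was called at an adjusted p under 0.05. With KO1 and KO2 together against wild type 1 of the 7 was called, Rbbp4, where 6.62% of all tested genes were called (2.72% higher in the lines and 3.89% lower). In KO1 against wild type none of the 7 was called, against 9.79% of all tested genes (3.46% higher and 6.34% lower), and none had an unadjusted p under 0.05 in edgeR or a call in DESeq2. DESeq2 gave no adjusted p for Mta1, Mta2 and Sin3a in any contrast and so could not call them. In KO2 against wild type 1 was called, again Rbbp4, against 8.98% of all tested genes (5.01% higher and 3.97% lower). Between KO1 and KO2 1 was called, also Rbbp4, against 19.3% of all tested genes (7.93% higher in KO1 and 11.4% lower). The median log2 fold change of the 7 was -0.03 for the lines together, 0.25 in KO1 and -0.16 in KO2, beside medians of -0.01, 0.01 and -0.01 over all tested genes.

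The counts under Rbbp4, the gene of the histone-binding subunit shared by NuRD and Sin3, rose in the NSD1-/- lines together and in KO2. Whether these fragments came from Rbbp4 transcripts was not tested. Rbbp4 held 44 and 46 counts for wild type, 60 and 67 for KO1 and 73 and 103 for KO2. All 4 libraries of the lines labelled NSD1-/- were above both wild type libraries, and both KO2 libraries were above both KO1 libraries. Of all tested genes, 18.6% had the 4 libraries beyond both wild type libraries in one direction or the other. The level was 38.8 ± 0.431 CPM (SD, n = 2) for wild type, 52.3 ± 5.42 for KO1 and 75.0 ± 14.0 for KO2. The log2 fold change was 0.69 ± 0.18 (SE, 95% interval 0.32 to 1.06) for the lines together, with an adjusted p of 0.0152 by edgeR's quasi-likelihood test. In KO2 it was 0.95 ± 0.20 (0.55 to 1.36), with an adjusted p of 0.00149. In KO1 it was 0.43 ± 0.21, with an adjusted p of 0.231. Tested directly, KO1 was below KO2 by a log2 difference of -0.52 ± 0.18, with an adjusted p of 0.0436.

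The call in KO2 held under each alternative tried, with an adjusted p of at most 0.0485, reached without KO2 replicate 2. The call for the lines together did not: by DESeq2 the log2 fold change was 0.70 with an adjusted p of 0.155, and with the 4 libraries fitted as a single group 0.71 with an adjusted p of 0.450. It was also lost without wild type replicate 1 (adjusted p 0.0939), without wild type replicate 2 (0.0751) and without KO1 replicate 2 (0.0756). The call between KO1 and KO2 was lost by DESeq2, with no filter on low counts (adjusted p 0.0528), and without KO1 replicate 1, KO1 replicate 2 or KO2 replicate 2, where the highest adjusted p was 0.418.

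Gm17525, on the other strand of the same locus, was not called in any contrast. Its level was 1365 ± 128 CPM for wild type, 1295 ± 43.6 for KO1 and 1381 ± 40.3 for KO2, and the wild type libraries overlapped or spanned both lines. The log2 fold change was -0.03 ± 0.05 (95% interval -0.14 to 0.08, adjusted p 0.825) for the lines together, -0.08 ± 0.06 in KO1 and 0.02 ± 0.06 in KO2. Its interval was the narrowest of the 7 genes tested.

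The share of counts on the Rbbp4 side of the pair, Rbbp4 over Rbbp4 plus Gm17525, was 2.58% (exact binomial 95% interval 1.88% to 3.44%) and 2.98% (2.19% to 3.95%) in the wild type libraries. It was 3.53% (2.70% to 4.52%) and 4.25% (3.31% to 5.37%) in KO1, and 4.59% (3.61% to 5.73%) and 5.68% (4.66% to 6.85%) in KO2. These intervals cover counting error only. All 4 shares in the NSD1-/- lines were above both wild type shares, and the exact two-sided permutation p of 4 libraries against 2 was 0.133, the smallest that this design allows. The shares use the Rbbp4 counts given above, and this test takes the libraries of both lines as alike. It is therefore no separate evidence for the Rbbp4 difference. Sync, at the other end of the UTR, held 77 and 53 counts for wild type, 76 and 71 for KO1 and 84 and 94 for KO2, so KO2 was above the other groups and wild type overlapped KO1. Its log2 fold change was 0.44 ± 0.19 in KO2 (adjusted p 0.150, or 0.0328 without wild type replicate 1) and 0.28 ± 0.17 for the lines together (adjusted p 0.394), neither called with all libraries.

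**Figure D3:**
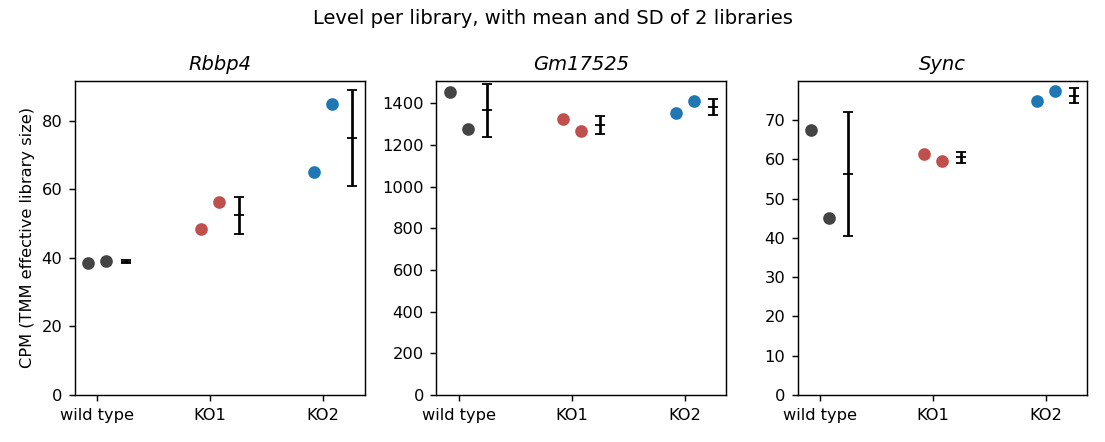
CPM of Rbbp4, Gm17525 and Sync in each library (coloured points), with the mean and SD of the 2 libraries of a group beside them in black, each panel on its own axis from 0. Rbbp4 has a mean of 38.8 CPM for wild type, 52.3 for KO1 and 75.0 for KO2, while all libraries of Gm17525 lie between 1264 and 1456 CPM.

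Among the catalytic subunits, Hdac1 was the only one with enough counts to test. Hdac1, at chr4:129193348-129219957 on the minus strand of the chromosome that also carries Rbbp4, held 32 and 49 counts for wild type, 46 and 56 for KO1 and 27 and 46 for KO2. The 3 groups overlapped. Its log2 fold change was 0.05 ± 0.22 (95% interval -0.40 to 0.51, adjusted p 0.934) for the lines together, 0.27 ± 0.25 in KO1 and -0.16 ± 0.26 in KO2, and the difference between the lines, 0.43 ± 0.25, was not called (adjusted p 0.250). No annotated exon lies opposite Hdac1, so the tables do not tell whether these fragments came from Hdac1 transcripts. Hdac2, on chromosome 10, held 2 and 7 counts for wild type, 0 and 10 for KO1 and 6 and 4 for KO2. Hdac3, the NCoR and SMRT deacetylase on chromosome 18, held 1 count in each wild type library, 0 and 1 in KO1, and 3 and 1 in KO2. Both were below the filter and were not tested, and counts this low leave little power to see a difference.

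The NuRD subunits Chd4, Mta1 and Mta2 gave no call. Chd4, the ATP-dependent remodeller of NuRD at chr6:125045999-125080609, held 28 and 34 counts for wild type, 40 and 20 for KO1 and 30 and 19 for KO2, with overlapping groups and a log2 fold change of -0.23 ± 0.27 (adjusted p 0.711) for the lines together. The median over the 259 tested genes of chromosome 6 was -0.27 in that contrast, near the value of Chd4. Line by line the values were -0.42 for the chromosome and -0.11 ± 0.31 for Chd4 in KO1, and -0.03 and -0.35 ± 0.32 in KO2. The 95% interval of Chd4 contained the chromosome median in each line, and a difference between them was not tested. Mta1, a scaffold that holds HDAC1 and HDAC2 in NuRD, lies at chr12:114336489-114375417 and held 6 and 14 counts for wild type, 11 and 14 for KO1 and 14 and 16 for KO2. Its log2 fold change was 0.41 ± 0.40 (adjusted p 0.633). Its paralogue Mta2, at chr19:9016365-9026793, held 12 and 9 counts for wild type, 13 and 14 for KO1 and 5 and 8 for KO2. Both Mta2 values in KO2 were below those of the other groups. The difference between KO1 and KO2, 0.98 ± 0.49, had an unadjusted p of 0.0490 and an adjusted p of 0.154, and was not called. Rbbp7, on chromosome X, held 4 and 5 counts for wild type, 5 and 10 for KO1 and 8 and 6 for KO2, and was not tested. Txlng, whose protein is a member of the taxilin family, overlaps the end of Rbbp7 by 174 bases on the other strand and held between 26 and 40 counts, with a log2 fold change of 0.42 ± 0.23 for the lines together (adjusted p 0.327).

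Sin3a, the scaffold of the Sin3 complex at chr9:56919847-56976173, held 18 and 16 counts for wild type, 16 and 6 for KO1 and 15 and 15 for KO2. The lowest value came from KO1 replicate 2, wild type and KO1 met at 16, and both KO2 libraries lay just below. In CPM all 4 libraries of the lines, at 12.9 and 5.03 for KO1 and 13.4 and 12.4 for KO2, were below the wild type libraries at 15.7 and 13.6, as 18.6% of all tested genes also lay apart. The log2 fold change was -0.44 ± 0.35 for the lines together (adjusted p 0.552), -0.69 ± 0.42 in KO1 (-0.19 without KO1 replicate 2 and -1.51 without KO1 replicate 1) and -0.19 ± 0.39 in KO2. Its opposite gene 2410133F24Rik held between 562 and 669 counts and had a log2 fold change of -0.04 ± 0.07 (adjusted p 0.812). That gene faces 205 exon bases of Sin3a but 461 of Man2c1, an alpha-mannosidase gene, so its counts do not belong to the Sin3a pair alone.

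**Figure D4:**
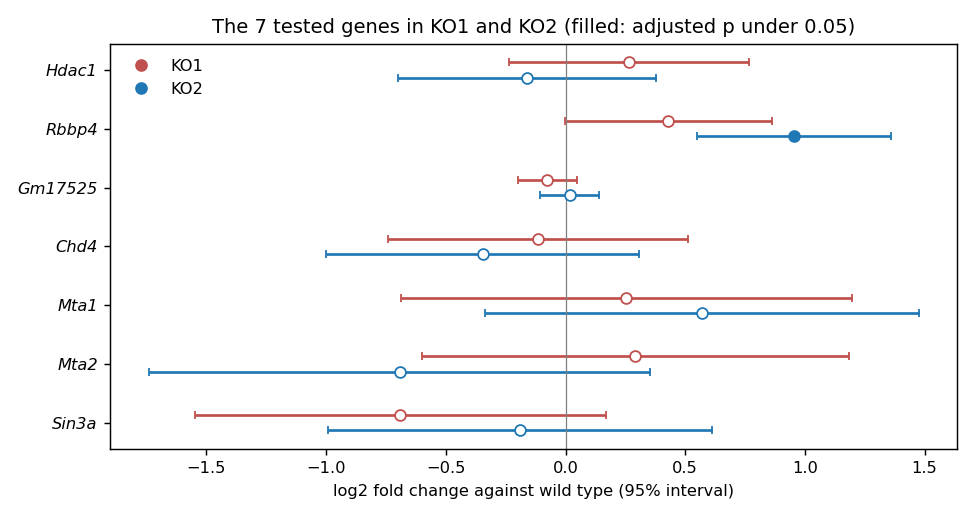
Log2 fold change against wild type, with its 95% interval from the edgeR fit, for the 7 tested genes in KO1 and KO2. Rbbp4 in KO2 is the filled point, called at 0.95 with an interval of 0.55 to 1.36. The other points are open, not called, and Gm17525 has the narrowest intervals.

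The rest of the deacetylase complexes was read from lists of the class I deacetylases and of the subunits of NuRD, Sin3, CoREST, NCoR and SMRT, and MiDAC. These hold 51 genes in all, with every member except Gm17525 included. Read by the counted gene, 25 of the 51 were tested. For the lines together 1 rose and 0 fell, in KO1 0 and 0 by edgeR, in KO2 1 and 1, and between KO1 and KO2 2 were higher in KO1 and 2 lower. For KO1, unadjusted p was under 0.05 in 3 of the 25, and DESeq2 called 0. It gave no adjusted p for some of them, among them Mta1, Mta2 and Sin3a, and so could not call those. The called shares are 4%, 0%, 8% and 16% of those tested, beside the 6.62%, 9.79%, 8.98% and 19.3% of all genes given above. Kdm1a, the H3K4 demethylase of CoREST, fell in KO2, from 43 and 48 counts in wild type to 16 and 25, with 34 and 53 in KO1. Its log2 fold change was -1.16 ± 0.29 in KO2 (adjusted p 0.00784) and -0.13 ± 0.24 in KO1 (adjusted p 0.817), and the lines differed by 1.03 ± 0.29 (adjusted p 0.0114). The call in KO2 was lost by DESeq2 (adjusted p 0.0958) and without KO2 replicate 1 (0.0791), and the call between the lines by DESeq2 (0.0887), without KO1 replicate 2 (0.253) and without KO2 replicate 1 (0.107). Sap18, a Sin3-associated subunit, held 40 and 51 counts for wild type, 29 and 31 for KO1 and 59 and 80 for KO2. KO1 was below KO2 by -1.26 ± 0.23 (adjusted p 0.000107), while neither line was called against wild type. C130039O16Rik, from the MiDAC list, held 13 and 8 counts in wild type, 13 in each KO1 library, and 2 and 5 in KO2, with a difference between the lines of 1.80 ± 0.59 (adjusted p 0.0270). That call was lost without KO1 replicate 1, KO1 replicate 2 or KO2 replicate 1, with an adjusted p of up to 0.201. DESeq2 gave an unadjusted p of 0.0381 and no adjusted p, so it did not call the gene.

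Read instead by the gene opposite, taken as the one with the largest exon overlap, 13 counted genes faced a gene of these complexes and 11 were tested. 2410133F24Rik is not among them, because its largest overlap is with Man2c1 and not with Sin3a. For the lines together 1 rose and 1 fell, in KO1 0 rose and 1 fell, in KO2 2 rose and 0 fell, and between KO1 and KO2 3 were lower in KO1. Counted genes that have any gene opposite were called in 10.8%, 15.5%, 13.9% and 27.5% of cases in the same contrasts. 3010003L21Rik, opposite the Sin3 subunit gene Fam60a on chromosome 6, held 301 and 289 counts for wild type, 202 and 206 for KO1 and 221 and 272 for KO2. It fell in the lines together (log2 fold change -0.43 ± 0.09, adjusted p 0.00185) and in KO1 (-0.60 ± 0.11, adjusted p 0.000211). The chromosome 6 medians of -0.27 and -0.42 in these contrasts lie in the same direction. A030003K02Rik, opposite the Sin3-associated PHD finger gene Phf12 on chromosome 11, held 204 and 182 counts for wild type, 226 and 228 for KO1 and 257 and 275 for KO2. It rose in KO2 by 0.45 ± 0.11 (adjusted p 0.00602) and in the lines together by 0.31 ± 0.10 (adjusted p 0.0484). Without wild type replicate 2 these adjusted p values were 0.0870 and 0.453, and by DESeq2 0.0680 and 0.298. The call for the lines together was also lost without KO1 replicate 1 (0.0652) or KO1 replicate 2 (0.146). Pigl, opposite the corepressor gene Ncor1 on the same chromosome, held 63 and 57 counts for wild type, 59 and 69 for KO1 and 75 and 115 for KO2, and rose in KO2 by 0.65 ± 0.19 (adjusted p 0.0291). The call was lost by DESeq2 (adjusted p 0.208), without wild type replicate 2 (0.134) and without KO2 replicate 2 (0.427, at a log2 fold change of 0.38). The median of the 560 tested genes of chromosome 11 was 0.22 for the lines together, 0.06 in KO1 and 0.40 in KO2. Chromosome 4, which carries Rbbp4, Hdac1 and Kdm1a, had medians of -0.03, 0.03 and -0.05. Gm17659, opposite the Sin3-associated chromodomain gene Morf4l1, was lower in KO1 than in KO2 by -0.16 ± 0.05 (adjusted p 0.0144), at 3855 to 4421 counts in all libraries. That call was lost without KO1 replicate 1 (adjusted p 0.187), KO1 replicate 2 (0.0518) or KO2 replicate 2 (0.120).

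The most abundant uncalled genes of these lists gave the following. Counts of Ncor1 itself ran from 167 to 241, with a log2 fold change of 0.23 ± 0.11 for the lines together (adjusted p 0.239). Gps2, a subunit of the NCoR and SMRT complexes, gave 0.12 ± 0.24 (adjusted p 0.840). Gm16621, opposite the CoREST gene Rcor3, held 22 and 19 counts for wild type, 14 and 10 for KO1 and 14 and 11 for KO2, and gave -0.78 ± 0.32 (adjusted p 0.159). Gm11457, opposite the MiDAC gene Dnttip1, gave -0.12 ± 0.08 at 352 to 454 counts (adjusted p 0.449).

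Outside the class I complexes, 2 of the 8 counted class II and IV deacetylase genes and 3 of the 7 sirtuin genes were tested, and none was called by edgeR in any of the 4 contrasts. DESeq2 called none either, but it gave no adjusted p for Hdac5, Hdac7 and Sirt1 in any contrast and so could not call them. Of the 5 tested genes, 1 had an unadjusted edgeR p under 0.05 for the lines together and in KO1, Hdac5, and 0 in the other contrasts. Hdac5, on chromosome 11, held 8 and 7 counts for wild type, 20 and 17 for KO1 and 13 and 15 for KO2. All 4 libraries of the lines were above both wild type libraries, as 18.6% of all tested genes also lay apart in CPM. The log2 fold change of Hdac5 for the lines together was 1.05 ± 0.39 (unadjusted p 0.0105, adjusted p 0.104), where the chromosome 11 median was 0.22. Hdac7 gave -0.33 ± 0.49 (adjusted p 0.769), Sirt1 0.05 ± 0.42 (adjusted p 0.973) and Sirt3 0.06 ± 0.23 (adjusted p 0.926). Ric8, which faces Sirt3, gave -0.34 ± 0.28 (adjusted p 0.573). Gm14573, opposite the class IV deacetylase gene Hdac11 on chromosome 6, held 31 and 24 counts for wild type, 11 and 7 for KO1 and 28 and 36 for KO2. It fell in KO1 (log2 fold change -1.67 ± 0.37, adjusted p 0.00223), did not differ beyond the threshold in KO2 at 0.21 ± 0.28 (adjusted p 0.719), and differed between the lines by -1.87 ± 0.36 (adjusted p 0.000215). Without KO1 replicate 2 the call in KO1 was lost (adjusted p 0.0598). Of the other complexes in which RBBP4 serves, Gm16706, opposite the PRC2 gene Suz12 on chromosome 11, held 1461 and 1408 counts for wild type, 1939 and 1837 for KO1 and 2419 and 2796 for KO2. The 3 groups did not overlap, and it rose by 0.33 ± 0.06 in KO1 (adjusted p 0.000112) and by 0.85 ± 0.05 in KO2 (adjusted p 1.54e-12). Gm17629, opposite the PRC2 methyltransferase gene Ezh2 on chromosome 6, fell in KO1 (log2 fold change -0.60 ± 0.07, adjusted p 9.53e-08), from 1250 and 1156 counts in wild type to 846 and 818, with 1004 and 1176 in KO2. Smarca5 and Bptf, from the same list of other RBBP4 complexes, gave -0.01 ± 0.16 (adjusted p 0.988) and 0.30 ± 0.30 (adjusted p 0.659) for the lines together.

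**Figure D5:**
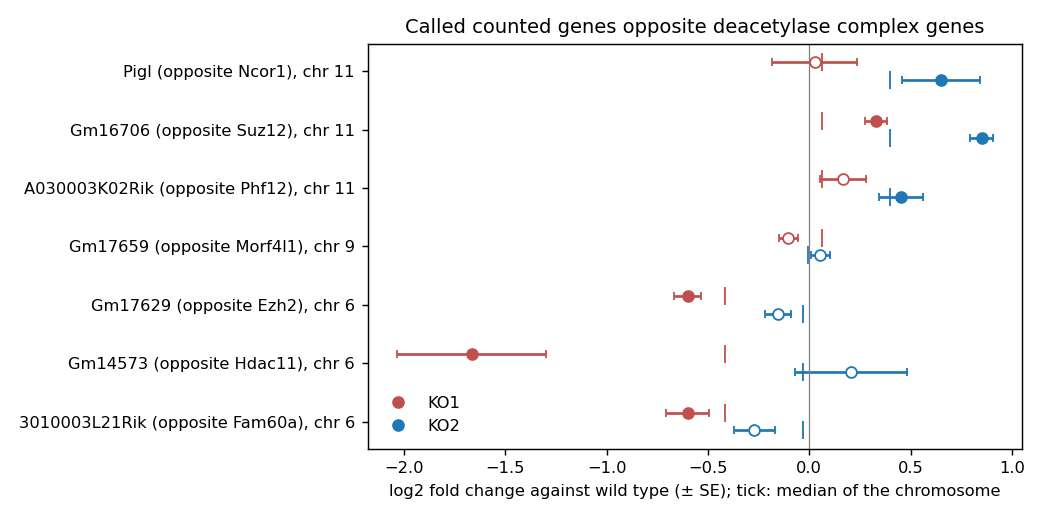
Log2 fold change against wild type, with its SE, in KO1 and KO2 for the called counted genes that face a gene of the deacetylase, Rbbp4 or Hdac11 lists, named with the gene opposite. Vertical ticks mark the median of all tested genes of the same chromosome in the same line, which is -0.42 for chromosome 6 in KO1 and 0.40 for chromosome 11 in KO2.

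The genes whose levels across the 6 libraries were most like those of Rbbp4, among 3688 genes on other chromosomes with a mean of at least 10 CPM, were Eme1 (Pearson r 0.983 of log2 CPM), Polg (0.982) and Gm16220 (0.973). For Gm17525 they were Klhdc9 (0.970), Ankrd42 (0.949) and Tmem175 (0.939). Each r rests on 6 libraries that share 3 groups and was the highest of many, so it is a description only.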

How the data were processed

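RNA was measured in 6 libraries of J1 ES cells, 2 for each of 3 groups taken from the labels. The authors deposited raw counts per gene with no normalization. Per the file headers, read pairs were counted over exons by gene with featureCounts 2.0.1 at strand setting 1, using GENCODE mouse version 1 (mm9). The submitters' processing notes name the aligners STAR 2.5.4b and Bowtie2 and the trimmer Trim Galore 0.6.4, without saying which served the RNA libraries. Spans and strands of all 37310 genes equalled the reference annotation, so coordinates and sequences are mm9.

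Counts were analysed with edgeR 4.0.16 in R 4.3.3: filterByExpr at a minimum count of 10, scaling by TMM, then a robust quasi-likelihood fit with a mean per group and 3 residual degrees of freedom. The common biological coefficient of variation was 4.46%. Errors beside a log2 fold change are SEs and those beside CPM are SDs over libraries. The opposite gene of a counted gene is the one with the largest exon overlap on the other strand, of at least 50 bases (bedtools 2.31.1). The fit was tested on simulated data. DESeq2 1.42.0 and other settings were alternatives. Replicates of each group differed beyond sampling noise, so none was treated as a duplicate of another. The named genes are all members with their opposite genes, the called genes of the complex lists or else up to 2 of the most abundant, and the 3 genes most like Rbbp4 and Gm17525. The members and lists were chosen with earlier results of these data known.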

Additional observations from a re-analysis of the deposited data

Results flagged for a closer look

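The effect of the lines against wild type differed between KO1 and KO2, by edgeR's test of KO1 against KO2, for 10 of the genes named. On the log2 scale, KO1 minus KO2 was -0.52 for Rbbp4, 1.03 for Kdm1a, -1.26 for Sap18 and 1.80 for C130039O16Rik among the counted complex genes. It was -0.33 for 3010003L21Rik, -0.16 for Gm17659 and -0.62 for Pigl among those opposite a complex gene. It was -1.87 for Gm14573, -0.52 for Gm16706 and -0.45 for Gm17629, opposite Hdac11, Suz12 and Ezh2. Of all tested genes, 19.3% differed between the lines by the same test. Genes of the lists were named when called in any contrast, this one included. The count of 10 is therefore partly set by that choice and cannot be compared with the 19.3%. Of the 10, 3 lie on chromosome 6 and 2 on chromosome 11, whose medians between the lines were -0.41 and -0.31. DESeq2 did not call the difference between the lines for Rbbp4 (adjusted p 0.235), Kdm1a (0.0887), 3010003L21Rik (0.153) or Pigl (0.134), and gave no adjusted p for C130039O16Rik and Gm14573. Without 1 library, the difference between the lines was no longer called for 3010003L21Rik (KO1 replicate 1, KO1 replicate 2 or KO2 replicate 2, adjusted p up to 0.279) and for Pigl (KO1 replicate 1 or KO2 replicate 2, up to 0.363).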

How the results depend on the processing

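By DESeq2 the called genes numbered 115 for the lines together, 207 in KO1, 170 in KO2 and 417 between KO1 and KO2, against 333, 493, 452 and 971 by edgeR, and the called members were 0 for the lines together and 0 between the lines. Because DESeq2 gave no adjusted p for Mta1, Mta2 and Sin3a in any contrast, it could not call these members. With all 4 NSD1-/- libraries fitted as 1 group, 6 genes and 0 members were called. With no filter on low counts, 0 members were called between the lines. Leaving out each library in turn gave 213 to 362 called genes for the lines together, 280 to 591 in KO1, 328 to 435 in KO2 and 561 to 1065 between the lines, and 0 to 1 called members for the lines together and between the lines. The log2 fold change of some uncalled genes changed sign without 1 library. For the lines together it ran from -0.20 to 0.38 for Hdac1, -0.11 to 0.073 for Gm17525, -0.046 to 1.12 for Mta1, -0.40 to 0.043 for Mta2, -0.096 to 0.033 for 2410133F24Rik, -0.27 to 0.46 for Sirt1, -0.75 to 0.31 for Hdac7, -0.095 to 0.38 for Gps2, -0.19 to 0.38 for Sirt3 and -0.11 to 0.11 for Smarca5. In KO1 it ran from -0.17 to 0.020 for Gm17525, -0.66 to 0.26 for Chd4 and -0.21 to 0.96 for Mta1. In KO2 it ran from -0.53 to 0.17 for Hdac1, -0.059 to 0.13 for Gm17525 and -0.75 to 0.010 for Chd4, and between the lines from -0.31 to 0.63 for Chd4 and -1.32 to 0.0031 for Sin3a. Others kept their sign but moved by over 1.5 times, among them Sin3a (-0.85 to -0.19) and Chd4 (-0.50 to -0.046) for the lines together, Sin3a (-1.51 to -0.19) and Hdac1 (0.0083 to 0.58) in KO1, and Sync in KO2 (0.19 to 0.77). Smarca5 for the lines together was 0.00014 by DESeq2 and 0.0049 without AY036118. The causes were not tested. The replicate numbers did not pair the libraries (correlations of same-numbered deviations between -0.04 and 0.01). With a replicate block 321, 482, 416 and 935 genes were called and no member's call changed. A030003K02Rik lost its call for the lines together under it (adjusted p 0.0590). Hdac2, Hdac3 and Rbbp7 held at most 10 counts per library, too few for the filter, and the cause of these low counts was not tested.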
